A study of Homo sapiens with 8 samples.

Results

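The 10 genes described here are the transcriptional effectors of the Hippo pathway and some of their best known targets in Caco-2/15 cells, human colon cancer cells that differentiate toward enterocytes once confluent. They were chosen by symbol and all 10 were found among the 58302 gene IDs counted. They comprise the coactivators YAP1 and WWTR1, the DNA-binding partners TEAD1, TEAD2, TEAD3 and TEAD4, and the targets CCN1 (older symbol CYR61), CCN2 (older symbol CTGF), AMOTL2 and ANKRD1. RNA-seq was carried out on 4 groups with 2 libraries each: postconfluent and subconfluent Z2flag cells, and postconfluent and subconfluent Z1flag cells. Z2flag cells are heterozygous H2AFV-Flag (gene for the histone variant H2A.Z.2) and Z1flag cells heterozygous H2AFZ-Flag (gene for H2A.Z.1), each tagged by CRISPR-Cas9 editing on 1 of the alleles. Postconfluent cells were collected 7 days after confluence. No untagged cells are among the libraries, so every group carries a Flag allele, and the labels call the lines populations without saying whether each is 1 clone. Per the labels the study asks how the H2A.Z isoforms contribute to expression changes during enterocyte-like differentiation, and the comparison made here is postconfluent against subconfluent cells in each line.

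In the Hippo pathway a cascade of kinases, MST1 and MST2 (genes STK4 and STK3) followed by LATS1 and LATS2, phosphorylates YAP and its paralogue TAZ (gene WWTR1) and keeps them out of the nucleus. Unphosphorylated YAP and TAZ enter the nucleus and bind TEAD factors on DNA, which switches on genes such as CCN1, CCN2 and ANKRD1. High cell density is a classical activator of the kinases in epithelial cultures, and in the intestine YAP and TAZ are known for their part in crypt cell growth and repair. Because this control acts on protein, transcript levels do not measure YAP or TAZ activity.

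Gene counts per library ranged from 17063826 to 40881682. Levels are given as TMM-scaled CPM, read counts scaled to library size, and each log2 fold change is postconfluent over subconfluent, from edgeR's quasi-likelihood test with Benjamini-Hochberg adjustment over 18240 genes and a threshold of 0.05. All 10 genes passed the filter on low counts, TEAD2 only through the postconfluent libraries. The labels number the 2 libraries of a group as experiments 1 and 2 (here replicates) without saying that they were separate cultures, so the p-values measure the spread between these libraries, which may be technical. In bulk RNA, fewer cells of a type and less RNA per cell cannot be told apart. Reads outside annotated features were most frequent in postconfluent Z1flag replicate 1 (31.4%) and subconfluent Z1flag replicate 1 (32%), against 20.6% to 24.5% in the other 6 libraries.

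The cells carried the epithelial label: CDH1, the epithelial cadherin, averaged 1111 ± 119 CPM in postconfluent and 687 ± 28 CPM in subconfluent cells (SD, n = 4 each). Of 12 intestinal epithelial markers, 11 were tested, 8 rose and 2 fell over both lines. Among all genes tested 27.8% rose and 27.5% fell over both lines, which is the background for the marker counts below as well. KRT18, a keratin, was among the markers that fell (log2 fold change -1.94, SE 0.31, edgeR adjusted p = 0.000518). ALPI, the intestinal alkaline phosphatase of the brush border, was among those that rose (2.59, SE 0.21, edgeR adjusted p = 1.25e-05). Of 13 mesenchymal markers 6 were tested, 1 rose and 4 fell, and their summed level was 93.4 to 257 CPM in postconfluent and 744 to 1676 CPM in subconfluent libraries. TAGLN, an actin-binding protein, made up most of the subconfluent sum, at 67.9 ± 68.8 CPM in postconfluent and 1058 ± 392 CPM in subconfluent cells. PDGFRA, LUM and COL3A1 fell as well (8.75 ± 3.68, 19.5 ± 10.6 and 2.1 ± 1.5 CPM in postconfluent cells, against 84.7 ± 17.2, 75.7 ± 15.8 and 14.6 ± 6.33 CPM in subconfluent cells), and COL1A1 rose (34.1 ± 4.9 CPM in postconfluent and 11.6 ± 0.827 CPM in subconfluent cells). COL1A2 was at 0 in all libraries and ACTA2, VIM, DCN and THY1 averaged under 1 CPM in each state. The 5 endothelial markers (2 tested, both of which rose over both lines) summed to 8.1 to 22.8 CPM in postconfluent and 4.64 to 11.3 CPM in subconfluent libraries, with KDR at 0 in all libraries. The 5 leukocyte markers (2 tested, of which 1 rose) summed to 2.25 to 4.08 CPM in postconfluent and 0.84 to 1.09 CPM in subconfluent libraries. PTPRC was at 0 in the postconfluent ones. KRT20, LGALS4, VWF and CD3E passed the low-count filter only through postconfluent libraries, which nearly fixes their direction. Of these, KRT20, LGALS4 and VWF are among the rises counted above. Single libraries moved these counts: 1 endothelial marker rose when postconfluent Z2flag replicate 2 or subconfluent Z1flag replicate 1 was left out, 0 rose without the 2 libraries richest in reads outside features, and 2 leukocyte markers rose without postconfluent Z1flag replicate 2 or subconfluent Z1flag replicate 2. Without postconfluent Z1flag replicate 2 there were also 2 rises among the mesenchymal markers. The part of these markers in the results below was not tested.

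Postconfluence went with more CCN2 and TEAD2 and less TEAD1 and TEAD4 in both lines, and with less ANKRD1 in Z1flag cells, while YAP1, WWTR1, TEAD3, CCN1 and AMOTL2 did not pass the test in either line. In Z2flag cells 2 of the 10 genes rose and 2 fell, beside 18.3% higher and 19.3% lower among all genes tested. In Z1flag cells 2 rose and 3 fell, beside 21.3% higher and 19.1% lower among all genes. Over both lines 2 rose and 3 fell, beside 27.8% and 27.5% of all genes, so the share of these genes called was near that of the transcriptome. DESeq2 called 4 of the 10 in Z2flag cells (36.5% of all genes), 5 in Z1flag cells (39.2%) and 5 over both lines (53%). The median log2 fold change over both lines was -0.010 over all genes. Upper-quartile scaling moved it to 0.18, with 62% of called genes higher in place of 50.3%. In Z2flag cells that scaling gave 60.4% of called genes higher in place of 48.6%, and in Z1flag cells 67.1% in place of 52.7%. The 4 postconfluent and 4 subconfluent libraries did not overlap for TEAD1, TEAD2, TEAD4 and CCN2, which is 4 of 10 genes beside 51.2% of all genes. TEAD2 is in these counts although it passed the filter only where it was high, which nearly fixes its direction, and without it CCN2 was the only rise among the 10 in each of these edgeR comparisons. The counts in single lines rested on single libraries. In Z2flag cells, 0 genes fell without postconfluent Z2flag replicate 2 or subconfluent Z2flag replicate 2, and 1 fell without subconfluent Z2flag replicate 1 or either subconfluent Z1flag library. In those cells 1 of 2 rises was left without postconfluent Z2flag replicate 1 or subconfluent Z2flag replicate 2. In Z1flag cells, 1 gene fell without postconfluent Z1flag replicate 1 and 5 without replicate 2, and 1 rose without either subconfluent Z1flag library. Over both lines, 4 rose without postconfluent Z1flag replicate 1.

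**Figure D1:**
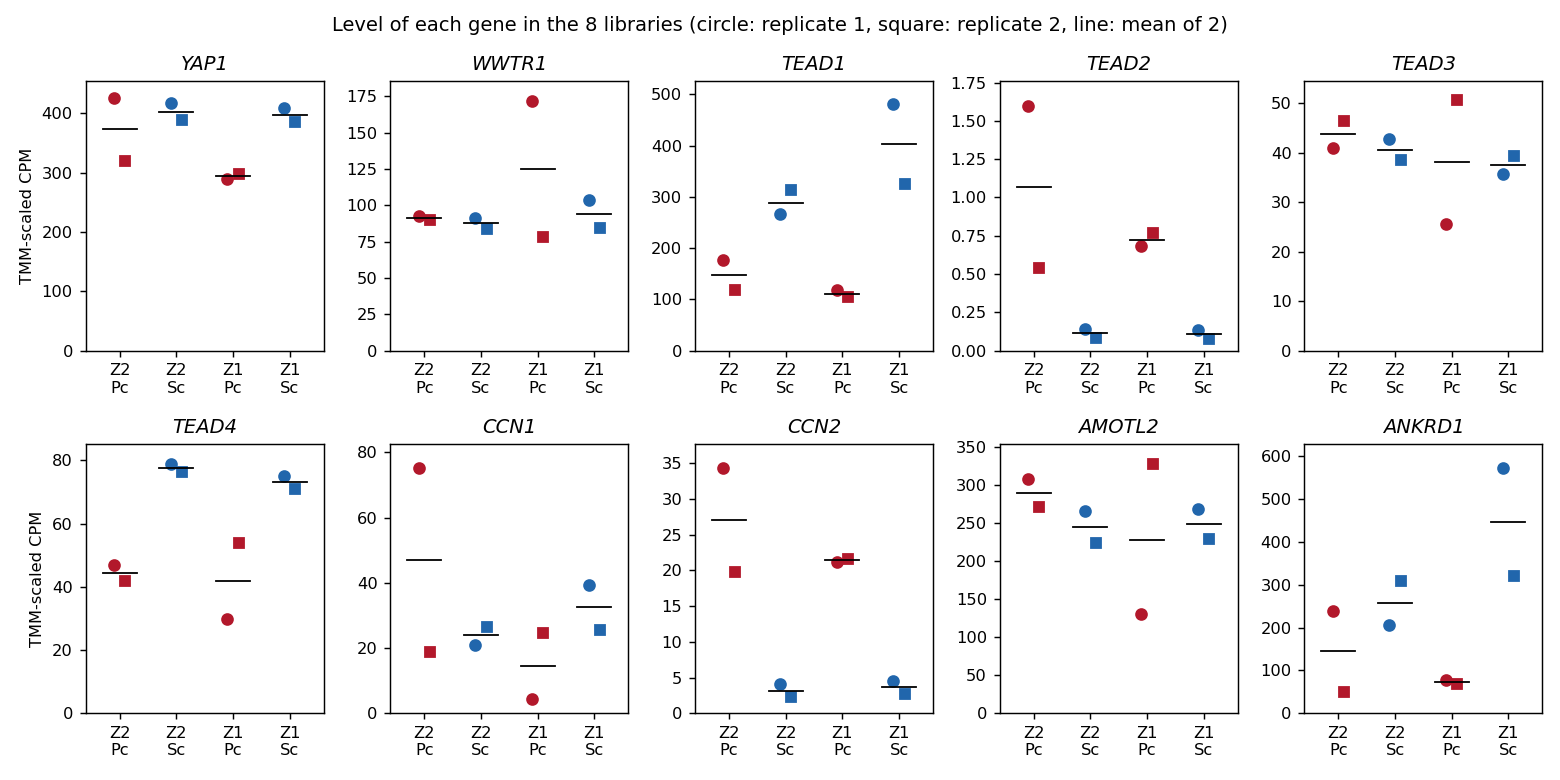
TMM-scaled CPM of each gene in each library (vertical axis, its own range per panel, starting at 0), by line and state; red points are postconfluent, blue points subconfluent, circles replicate 1, squares replicate 2, and lines group means. CCN2 lies between 19.7 and 34.3 CPM in the postconfluent libraries and between 2.28 and 4.6 CPM in the subconfluent ones, whereas the CCN1 points of the states overlap.

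YAP1, the main coactivator of the pathway (chr11:102110461-102233423, plus strand, GRCh38), stood at 426 and 320 CPM in postconfluent Z2flag cells, against 418 and 389 CPM in subconfluent Z2flag cells. In Z1flag cells it stood at 289 and 298 CPM in postconfluent libraries, against 409 and 386 CPM in subconfluent ones. The states overlapped in Z2flag cells, where the highest library of all was postconfluent, and did not overlap in Z1flag cells. The log2 fold change was -0.11 (SE 0.20, edgeR adjusted p = 0.68) in Z2flag cells, with the sign turning to 0.047 under upper-quartile scaling and to 0.17 without postconfluent Z2flag replicate 2. It was -0.44 (SE 0.20, edgeR adjusted p = 0.103) in Z1flag cells and -0.28 (SE 0.14, edgeR adjusted p = 0.119) over both lines, and in no alternative did it pass.

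WWTR1, which encodes TAZ (chr3:149517235-149736714, minus strand), stood at 92.7 and 89.9 CPM in postconfluent Z2flag cells, against 91.5 and 83.8 CPM in subconfluent Z2flag cells. The Z1flag libraries gave 172 and 78.5 CPM after confluence, against 104 and 84.1 CPM before it. Of 8 libraries all but postconfluent Z1flag replicate 1 lay between 78.5 and 104 CPM, and that library stood apart. The change was 0.06 (log2, SE 0.31, edgeR adjusted p = 0.896) in Z2flag cells, -0.017 without subconfluent Z2flag replicate 2, and 0.41 (SE 0.31, edgeR adjusted p = 0.314) in Z1flag cells. Without postconfluent Z1flag replicate 1 the Z1flag value was -0.23, and without replicate 2, which leaves the library that stood apart, it was 0.86 (edgeR adjusted p = 0.0045). Per kilobase of exon, YAP1 exceeded WWTR1 4.56 ± 1.65 times in postconfluent and 5.92 ± 0.459 times in subconfluent cells (SD, n = 4 each), with the lowest ratio, 2.25, in postconfluent Z1flag replicate 1. WWTR1 is overlapped by the antisense gene WWTR1-AS1, whose mean count was 14, and the sources used here do not give the strand setting of the counting.

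TEAD1 (chr11:12674591-12944483, plus strand), a TEAD factor found in most tissues, stood at 176 and 119 CPM in postconfluent Z2flag cells, against 266 and 313 CPM in subconfluent Z2flag cells. Postconfluent Z1flag cells had 118 and 104 CPM, against 482 and 325 CPM in subconfluent Z1flag cells. Every postconfluent library lay below every subconfluent one, and subconfluent Z1flag replicate 1 was the highest. TEAD1 fell in Z2flag cells (log2 fold change -0.98, SE 0.26, edgeR adjusted p = 0.015) and in Z1flag cells (-1.86, SE 0.26, edgeR adjusted p = 0.000711). Over both lines the change was -1.42 (SE 0.18, edgeR adjusted p = 0.000157). The Z1flag and combined calls held in every alternative, while the Z2flag call was lost without postconfluent Z2flag replicate 2 (-0.63, edgeR adjusted p = 0.163) or subconfluent Z2flag replicate 2 (-0.87, edgeR adjusted p = 0.102).

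TEAD4 (chr12:2959330-3040673, plus strand), the TEAD factor known for specifying trophectoderm in the mouse embryo, stood at 47 and 41.9 CPM in postconfluent Z2flag cells, against 78.8 and 76.4 CPM in subconfluent Z2flag cells. In Z1flag cells it stood at 30 and 53.8 CPM in postconfluent libraries, against 75.2 and 71.1 CPM in subconfluent ones. The subconfluent libraries lay close together, and all postconfluent ones were below them. TEAD4 fell by nearly the same amount in the lines, with log2 fold changes of -0.80 (SE 0.25, edgeR adjusted p = 0.0312) in Z2flag cells and -0.81 (SE 0.25, edgeR adjusted p = 0.0291) in Z1flag cells. The combined change of -0.80 (SE 0.18, edgeR adjusted p = 0.00366) held in all 16 alternatives. The call in Z2flag cells was lost in 7 of 17 alternatives (edgeR adjusted p up to 0.212), which were upper-quartile scaling and the removal of any one of the 4 Z2flag or the 2 subconfluent Z1flag libraries. The call in Z1flag cells was lost in 8 of 17 (edgeR adjusted p up to 0.184), among them the removal of postconfluent Z1flag replicate 1, of either subconfluent Z1flag library or of either postconfluent Z2flag library. Without postconfluent Z1flag replicate 1 the Z1flag value was -0.41 (edgeR adjusted p = 0.0818), and -0.37 (edgeR adjusted p = 0.184) when subconfluent Z1flag replicate 1 was also left out.

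TEAD3 (chr6:35473597-35497076, minus strand), a further TEAD paralogue, stood at 40.9 and 46.4 CPM in postconfluent Z2flag cells, against 42.7 and 38.6 CPM in subconfluent Z2flag cells. The Z1flag libraries gave 25.6 and 50.6 CPM after confluence, against 35.6 and 39.4 CPM before it. The states overlapped in both lines, and the lowest and the highest library were both postconfluent Z1flag. The log2 fold change was 0.10 (SE 0.28, edgeR adjusted p = 0.794) in Z2flag cells and 0.022 (SE 0.28, edgeR adjusted p = 0.958) in Z1flag cells. The Z1flag value was -0.55 (edgeR adjusted p = 0.0335) without postconfluent Z1flag replicate 2 and -0.07 without subconfluent Z1flag replicate 1. The value over both lines, 0.06 (SE 0.20, edgeR adjusted p = 0.804), passed the threshold without postconfluent Z1flag replicate 1 (0.33, edgeR adjusted p = 0.0296) and was -0.18 without replicate 2.

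TEAD2 (chr19:49340595-49362457, minus strand), best known from the mouse embryo and neural tissue, was the rarest of the 10 transcripts, with 29 and 9 counts in postconfluent Z2flag cells, against 6 and 3 counts in subconfluent Z2flag cells. In Z1flag cells it had 18 and 15 counts in postconfluent libraries, against 3 and 2 counts in subconfluent ones. Scaled for depth, it lay between 0.541 and 1.6 CPM in postconfluent and between 0.0763 and 0.143 CPM in subconfluent libraries, with no overlap. TEAD2 rose in Z2flag cells (log2 fold change 3.17, SE 0.66, edgeR adjusted p = 0.00473) and in Z1flag cells (2.74, SE 0.74, edgeR adjusted p = 0.0147). The ratio of summed counts corrected for depth was 7.91 over all libraries, with an exact 95% binomial interval of 4.42 to 15.2 that covers counting error only. Since the gene passed the filter only through the postconfluent libraries, it could hardly be tested without being higher there. The Z2flag call was lost without postconfluent Z2flag replicate 1 (2.27, edgeR adjusted p = 0.0698) or subconfluent Z2flag replicate 2 (2.86, edgeR adjusted p = 0.0574), and the Z1flag call without subconfluent Z1flag replicate 1 (3.14, edgeR adjusted p = 0.0632) or replicate 2 (2.37, edgeR adjusted p = 0.108). Without the 2 libraries richest in reads outside features the Z1flag value was 3.28 (edgeR adjusted p = 0.0837). The combined change (2.96, SE 0.49, edgeR adjusted p = 0.000672) held in all 15 alternatives. TEAD2 lies across CD37 on the opposite strand, whose mean count was 1.

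**Figure D2:**
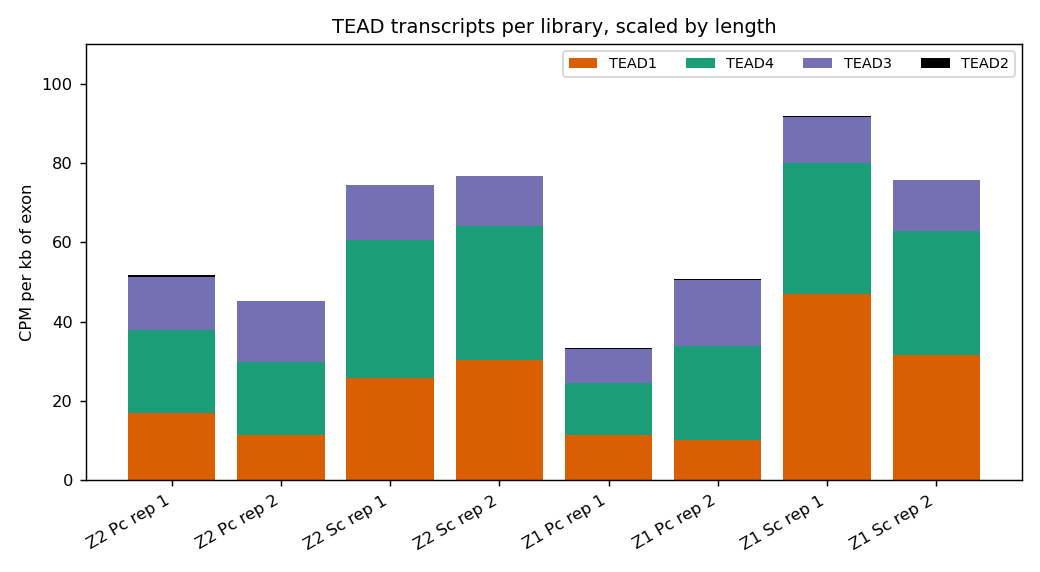
CPM per kilobase of merged exon (vertical axis) of the TEAD genes, stacked in each of the 8 libraries (Z2 and Z1 are the Flag lines, Pc postconfluent, Sc subconfluent). The stacks reach 33.3 to 51.8 in postconfluent and 74.6 to 91.8 in subconfluent libraries, and TEAD2 is at most 1.04% of a stack.

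Per kilobase of exon, the TEAD genes together stood at 45.3 ± 8.46 CPM per kb in postconfluent and 79.7 ± 8.06 CPM per kb in subconfluent cells (SD, n = 4 each). The states did not overlap (two-sided exact permutation test, p = 0.0286). That is the smallest p when all 8 libraries are shuffled without regard to line, and shuffling within lines was not run. Within the TEAD sum the TEAD1 share was 28.2% ± 6.75 in postconfluent and 41.8% ± 6.91 in subconfluent cells. The states nearly met, at 34.4% in postconfluent Z1flag replicate 1 and 34.6% in subconfluent Z2flag replicate 1. The TEAD3 share was 29.4% ± 4.4 in postconfluent and 16.3% ± 2.56 in subconfluent cells. The TEAD4 share stayed near 41.7% ± 3.33 in postconfluent and 41.9% ± 4.43 in subconfluent cells. TEAD2 contributed 0.657% ± 0.279 in postconfluent and 0.0461% ± 0.0138 in subconfluent cells. The shares thus moved toward TEAD3 while its own level did not pass the test, since shares of 1 sum are not independent of each other. The TEAD1 and TEAD3 shares each gave an exact permutation p of 0.0286 (0.0381 after Benjamini-Hochberg adjustment over the 4 shares) and the TEAD4 share gave 0.943. The TEAD2 share is a description only, as that gene was kept by the filter through the postconfluent libraries alone. With the longest coding transcript as length the TEAD1 share difference was -12.8 percentage points in place of -13.6, with an exact permutation p of 0.0571.

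Among the targets, CCN2 and ANKRD1 passed the test in opposite directions, so the bases before their start sites are shown, from RefSeq on GRCh38.p14, 5′ to 3′ on the gene's strand. Capitals mark GGAATG, the core TEAD motif, which was searched on both strands. Of 35116 RefSeq windows of 300 bases (250 before to 50 after a start) 14% held at least 1 GGAATG, 1.37% at least 2 and 0.128% at least 3. The CCN2 stretch is chr6:131951374-131951622, minus strand, with motifs starting at -169, -104 and -95 from the RefSeq start site. The ANKRD1 window held motifs starting at -220 and -128. The GENCODE gene starts 189 bases upstream of the RefSeq start there, so the motif at -128 lies in the first GENCODE exon, and the stretch shown ends before that exon (chr10:90921277-90921337, minus strand, with the motif at -220).
CCN2: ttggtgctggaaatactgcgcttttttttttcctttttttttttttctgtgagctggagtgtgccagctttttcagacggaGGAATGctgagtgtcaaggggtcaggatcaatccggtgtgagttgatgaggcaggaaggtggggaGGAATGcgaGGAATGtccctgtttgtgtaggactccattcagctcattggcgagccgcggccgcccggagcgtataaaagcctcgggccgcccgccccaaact
ANKRD1: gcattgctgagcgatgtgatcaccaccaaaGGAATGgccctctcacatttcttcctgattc
TGANTCA, a loose form of the AP-1 motif in which N is any base, was present in 7.71% of windows. It was found once in the ANKRD1 window, starting at -195 and overlapping no GGAATG, and not in the CCN2 window. The ANKRD1 match has T at N, where the usual AP-1 site has C or G. YAP1 held 1 GGAATG at -162 and 1 of 2 AMOTL2 windows held 1 at -69 on the opposite strand, while the windows of WWTR1, TEAD2 and TEAD3 held neither motif. No window of TEAD1, TEAD4 or CCN1 was used here. A match is a description of the letters and not a measured binding site.

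CCN2, a secreted matrix-associated protein and a widely used YAP readout (chr6:131948176-131951373, minus strand), stood at 34.3 and 19.7 CPM in postconfluent Z2flag cells, against 4.09 and 2.28 CPM in subconfluent Z2flag cells. Postconfluent Z1flag cells had 21.1 and 21.6 CPM, against 4.6 and 2.75 CPM in subconfluent Z1flag cells. The lowest postconfluent library was well above the highest subconfluent one in both lines. CCN2 rose 8.45-fold in Z2flag cells (log2 3.08, SE 0.39, edgeR adjusted p = 0.000514) and 5.83-fold in Z1flag cells (log2 2.54, SE 0.39, edgeR adjusted p = 0.000977). Over both lines the change was 2.81 (SE 0.27, edgeR adjusted p = 3.25e-05). The CCN2 call held under all alternatives in each line and over both.

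ANKRD1 (chr10:90912096-90921276, minus strand), an ankyrin-repeat protein first known from heart muscle and a frequent YAP target, stood at 239 and 49.7 CPM in postconfluent Z2flag cells, against 206 and 308 CPM in subconfluent Z2flag cells. In Z1flag cells it stood at 78 and 68.9 CPM in postconfluent libraries, against 572 and 320 CPM in subconfluent ones. Postconfluent Z2flag replicate 1 lay among the subconfluent libraries, while the other 3 postconfluent libraries lay below all of them. The log2 fold change in Z2flag cells was -0.83 (SE 0.56, edgeR adjusted p = 0.267), and without postconfluent Z2flag replicate 1 it was -2.29 (edgeR adjusted p = 0.0102). ANKRD1 fell in Z1flag cells (-2.60, SE 0.59, edgeR adjusted p = 0.00683) and over both lines (-1.71, SE 0.41, edgeR adjusted p = 0.00499). The Z1flag call was lost without postconfluent Z1flag replicate 1 (-2.66, edgeR adjusted p = 0.0849), without replicate 2 (-2.53, edgeR adjusted p = 0.0987), with no filter (edgeR adjusted p = 0.137) and without the 2 libraries richest in reads outside features (-2.18, edgeR adjusted p = 0.126). The call over both lines was lost under the same 4 alternatives, with edgeR adjusted p of 0.0553 to 0.119.

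CCN1, a secreted paralogue of CCN2 (chr1:85580761-85583962, plus strand), stood at 75.2 and 18.8 CPM in postconfluent Z2flag cells, against 21.1 and 26.6 CPM in subconfluent Z2flag cells. The Z1flag libraries gave 4.5 and 24.5 CPM after confluence, against 39.5 and 25.6 CPM before it. The highest and the lowest library were both postconfluent, and replicates of a postconfluent group were farther apart than the group means of the states. The log2 fold change was 0.98 (SE 0.70, edgeR adjusted p = 0.293) in Z2flag cells, and -0.26 without postconfluent Z2flag replicate 1. It was -1.17 (SE 0.72, edgeR adjusted p = 0.213) in Z1flag cells, and -2.86 (edgeR adjusted p = 0.0492) without postconfluent Z1flag replicate 2. Over both lines it was -0.10 (SE 0.50, edgeR adjusted p = 0.879) and turned to 0.08 under upper-quartile scaling. CCN1 and CCN2 thus gave different values in the same libraries: in Z1flag replicate 1 after confluence CCN1 was at its lowest of all 8 libraries while CCN2 was above all subconfluent ones.

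AMOTL2, a junction-associated angiomotin family member that is both a YAP target and a YAP-binding inhibitor (chr3:134355874-134375479, minus strand), stood at 308 and 271 CPM in postconfluent Z2flag cells, against 266 and 223 CPM in subconfluent Z2flag cells. Postconfluent Z1flag cells had 130 and 327 CPM, against 268 and 229 CPM in subconfluent Z1flag cells. Apart from postconfluent Z1flag replicate 1 at 130 CPM, every library lay between 223 and 327 CPM. The log2 fold change was 0.24 (SE 0.35, edgeR adjusted p = 0.608) in Z2flag cells. In Z1flag cells it was -0.12 (SE 0.35, edgeR adjusted p = 0.801), turning to 0.08 under upper-quartile scaling, to 0.43 without postconfluent Z1flag replicate 1 and to -0.94 (edgeR adjusted p = 0.00504) without replicate 2. Over both lines it was 0.06 (SE 0.25, edgeR adjusted p = 0.849), 0.38 (edgeR adjusted p = 0.0248) without postconfluent Z1flag replicate 1, and 0.42 (edgeR adjusted p = 0.0359) when subconfluent Z1flag replicate 1 was also left out. AMOTL2 overlaps the pseudogene RPL39P5 on its own strand, whose mean count was 13.

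**Figure D3:**
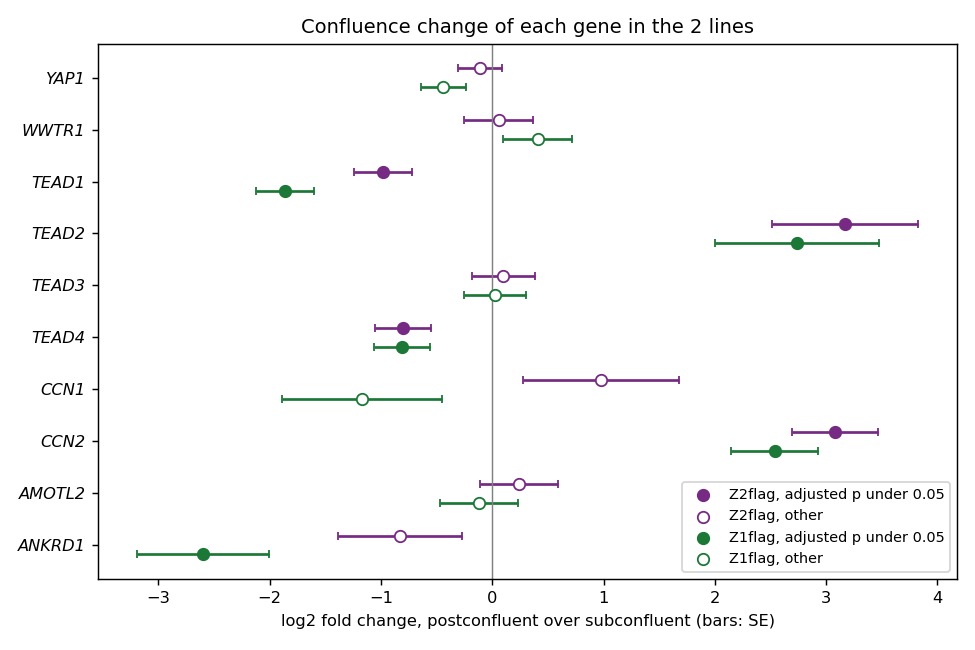
log2 fold change of postconfluent over subconfluent cells (horizontal axis) for each gene in Z2flag cells (purple) and Z1flag cells (green), with bars of 1 SE; filled points have an edgeR adjusted p under 0.05. CCN2 lies at 3.08 and 2.54 and TEAD1 at -0.98 and -1.86, while CCN1 lies on opposite sides of 0 at 0.98 and -1.17 with open points.

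The confluence changes of Z2flag and Z1flag cells were compared by an interaction term, Z2flag change minus Z1flag change. None of the 10 genes passed, beside 0% of all genes in edgeR and 0 in DESeq2. At an unadjusted p under 0.05 edgeR gave 902 genes, 4.95% of those tested, with TEAD1 and ANKRD1 among them. The difference was 0.89 for TEAD1 (log2, SE 0.36), 1.77 for ANKRD1 (SE 0.80) and 2.15 for CCN1 (SE 1.00), each with an edgeR adjusted p of 0.799. The CCN1 difference lay between 0.90 and 3.93 and the ANKRD1 difference between 0.31, without postconfluent Z2flag replicate 1, and 2.59 over the alternatives. Z2flag and Z1flag cells compared directly gave no call either: 0% of genes passed in postconfluent cells and 0% in subconfluent cells, in edgeR and in DESeq2. Unadjusted p-values under 0.05 numbered 1308 (7.17% of genes) in postconfluent cells, where CCN1 was the one of the 10 (1.71, SE 0.72, unadjusted p = 0.0397, edgeR adjusted p = 0.638), and 195 (1.07%) in subconfluent cells, with none of the 10. Without postconfluent Z1flag replicate 2, which leaves replicate 1 as the only postconfluent Z1flag library, 3 of the 10 were called higher and 1 lower in postconfluent Z2flag cells than in postconfluent Z1flag cells, beside 6% and 4.93% of all genes.

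The SD of the CPM over 4 libraries was larger in postconfluent than in subconfluent cells for 8 of the 10 genes, the exceptions being TEAD1 and ANKRD1. This SD is not scaled to the mean, so it partly follows the level. ANKRD1 averaged 109 ± 87.7 CPM in postconfluent and 351 ± 156 CPM in subconfluent cells. CCN2 averaged 24.2 ± 6.78 CPM in postconfluent and 3.43 ± 1.09 CPM in subconfluent cells. How many of all genes had the larger SD in postconfluent cells was not counted, and each set of 4 libraries holds both lines. Postconfluent Z2flag replicate 1 was the highest of the postconfluent libraries for YAP1, TEAD1, TEAD2, CCN1, CCN2 and ANKRD1. Postconfluent Z1flag replicate 1 was the highest for WWTR1 and the lowest for YAP1, TEAD3, TEAD4, CCN1 and AMOTL2. By mean CPM per kb, ANKRD1 and YAP1 led both states, at 55.1 ± 44.3 and 53 ± 10 in postconfluent cells, against 178 ± 78.6 and 63.6 ± 2.42 in subconfluent cells (SD, n = 4 each). The postconfluent ANKRD1 mean rested on Z2flag replicate 1, at 121 CPM per kb. In the other postconfluent libraries ANKRD1 was 25.1 to 39.4 CPM per kb, below YAP1 at 45.9 to 50.8. By mean, AMOTL2 came next at 43.3 ± 14.8 CPM per kb in postconfluent and 41.2 ± 3.97 CPM per kb in subconfluent cells, and the first 3 did not differ beyond their spread in postconfluent cells. TEAD4, TEAD3, WWTR1, TEAD1, CCN1 and CCN2 followed in postconfluent cells within 10.3 to 19 CPM per kb. TEAD4 (19 ± 4.42) exceeded TEAD3 (13.4 ± 3.59) in each of the 4 libraries, and the neighbours below TEAD3 differed by less than their spread. In subconfluent cells TEAD1 (33.7 ± 9.16 CPM per kb) and TEAD4 (33.2 ± 1.43) stood above TEAD3 (12.8 ± 0.966), CCN1 (11.5 ± 3.21) and WWTR1 (10.8 ± 1.15), and CCN2 was far lower at 1.47 ± 0.467. TEAD2 was last in both states, at 0.301 ± 0.16 CPM per kb in postconfluent and 0.0368 ± 0.0114 CPM per kb in subconfluent cells.

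The other genes of the pathway were examined in 4 lists, tested with all genes and given here over both lines. Of 18 kinase cassette genes and their activators, 10 fell and 0 rose, with a median log2 fold change of -0.49 beside -0.010 over all genes. All genes were called lower at 27.5%. In single lines 5 of the 18 fell in Z2flag cells and 9 in Z1flag cells, beside 19.3% and 19.1% of all genes. The smallest adjusted p-values were those of MAP4K4, a kinase that acts on LATS (155 ± 21.2 CPM in postconfluent and 506 ± 48.6 CPM in subconfluent cells, log2 fold change -1.70, SE 0.15, edgeR adjusted p = 2.03e-05), NF2, the scaffold Merlin (-1.20, SE 0.14, edgeR adjusted p = 9.53e-05), and FRMD6, a FERM-domain protein (-1.98, SE 0.24, edgeR adjusted p = 9.88e-05). The core kinases STK3 and LATS1 were among the 10, while STK4 and LATS2 were not. TAOK3, a kinase upstream of MST1 and MST2, averaged 26.8 ± 5.89 CPM in postconfluent and 20.7 ± 1.19 CPM in subconfluent cells without passing (0.37, SE 0.17, edgeR adjusted p = 0.0845). The count of 10 was 6 without postconfluent Z2flag replicate 2, 6 under upper-quartile scaling, which also gave 3 rises, and 3 at a change of at least 2-fold. In this list 1 gene rose when either postconfluent Z1flag library was left out, and likewise for postconfluent Z2flag replicate 2 or for the 2 libraries richest in reads outside features together. In Z2flag cells the 5 falls became 2 without postconfluent Z2flag replicate 2 and 3 without either subconfluent Z2flag library, and in Z1flag cells the 9 became 3 and 4 without subconfluent Z1flag replicate 1 and replicate 2.

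Of 14 binding partners and cofactors 10 were tested, 4 fell and 1 rose, with a median of -0.19. The shares of all genes were 27.5% lower and 27.8% higher. PTPN14, a phosphatase that retains YAP in the cytoplasm, averaged 140 ± 6.35 CPM in postconfluent and 384 ± 56.9 CPM in subconfluent cells (log2 fold change -1.45, SE 0.14, edgeR adjusted p = 2.82e-05). AMOT, a relative of AMOTL2, fell (-1.10, SE 0.14, edgeR adjusted p = 0.000114), as did TP73, a p53 family factor that binds YAP (-1.11, SE 0.29, edgeR adjusted p = 0.00806). The fourth, VGLL1, a TEAD-binding cofactor named because it completes the count, averaged 0.0847 ± 0.0648 CPM in postconfluent and 1.45 ± 0.626 CPM in subconfluent cells. VGLL1 passed the low-count filter only through the subconfluent libraries, which nearly fixes its direction. VGLL4, which competes with YAP for TEAD, rose (0.37, SE 0.14, edgeR adjusted p = 0.0396), a call lost in 7 of 16 alternatives, among them the removal of any subconfluent library or of postconfluent Z2flag replicate 2, and without postconfluent Z1flag replicate 2 the list held 2 rises. VGLL2 and TBX5 were at 0 in all libraries, and VGLL3 and RUNX2 were too low to test.

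Of 11 upstream polarity and adhesion genes 10 were tested, 2 fell and 1 rose, with a median of -0.09. Among all genes 27.5% were called lower and 27.8% higher. DLG1, a membrane scaffold of the Scribble complex, fell (232 ± 27.9 CPM in postconfluent and 586 ± 55.9 CPM in subconfluent cells, log2 fold change -1.33, SE 0.14, edgeR adjusted p = 5.63e-05). SCRIB, its partner, fell less (-0.43, SE 0.14, edgeR adjusted p = 0.0217), and its call was lost in 9 of 16 alternatives, including the removal of any library but the postconfluent Z1flag ones. LLGL2, a basolateral polarity protein, rose (0.55, SE 0.14, edgeR adjusted p = 0.00891), a call that needed replicate 1 of the subconfluent Z1flag and replicate 2 of the subconfluent Z2flag cells, and 2 genes of the list rose without postconfluent Z1flag replicate 2.

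Of 18 further genes of a published YAP and TAZ target signature 16 were tested, 7 fell and 2 rose, with a median of -0.51 over both lines. Over all genes 27.5% were called lower and 27.8% higher. In Z2flag cells 4 fell and 1 rose, beside 19.3% lower and 18.3% higher among all genes. In Z1flag cells 7 fell and 1 rose, beside 19.1% lower and 21.3% higher. FJX1, a secreted regulator of planar polarity, averaged 3.87 ± 2.33 CPM in postconfluent and 38.7 ± 9.29 CPM in subconfluent cells (log2 fold change -3.34, SE 0.43, edgeR adjusted p = 0.000144). F3, the coagulation tissue factor, fell as well (-1.16, SE 0.16, edgeR adjusted p = 0.000182), and PTPN14 and LATS2, each in a list above, are also in this one. GADD45A, a stress and growth-arrest gene, rose to 89.4 ± 42.2 CPM in postconfluent cells, against 23.2 ± 1.91 CPM in subconfluent cells (1.91, SE 0.29, edgeR adjusted p = 0.00043). NT5E was the other gene that rose, at 0.502 ± 0.196 CPM in postconfluent and 0.157 ± 0.0841 CPM in subconfluent cells, and is named because it completes that count. NT5E passed the low-count filter only through postconfluent libraries, which nearly fixes its direction. In that list 1 gene rose in place of 2 when replicate 1 of the postconfluent Z2flag cells, of the postconfluent Z1flag cells or of the subconfluent Z1flag cells was left out, and also without either subconfluent Z2flag library or without both Z1flag replicates 1. The targets therefore did not move as 1 group: CCN2 and GADD45A were higher after confluence, ANKRD1, FJX1 and F3 lower, and CCN1 and AMOTL2 did not pass.

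**Figure D4:**
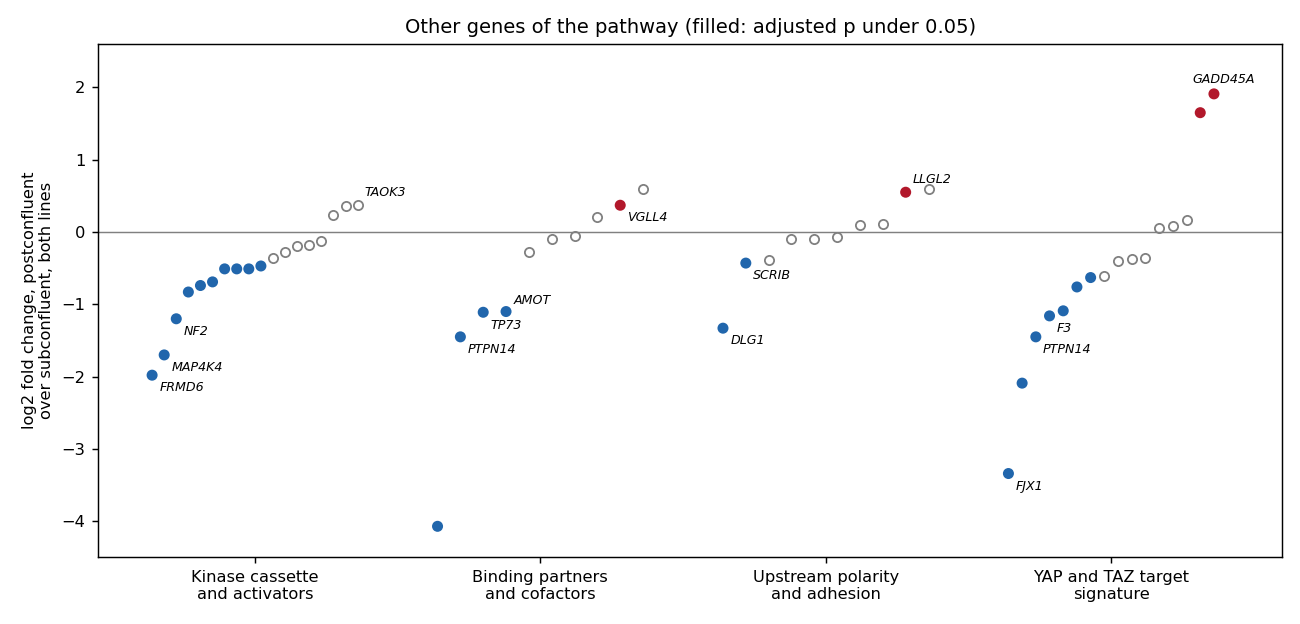
log2 fold change of postconfluent over subconfluent cells over both lines (vertical axis) for each tested gene of the 4 lists, ordered by size within a list; red points rose and blue points fell with an edgeR adjusted p under 0.05, and open points did not pass. In the kinase list 10 points are blue and none red, while the target signature runs from -3.34 for FJX1 to 1.91 for GADD45A.

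Across all 8 libraries, the genes outside the set whose centred log2 CPM followed YAP1 most closely were THUMPD2, FUBP3 and TAF9, with root mean square differences of 0.046, 0.052 and 0.055 on the log2 scale. For CCN2 they were DEPP1 (0.252), SLC27A1 (0.318) and SFI1 (0.319), all of which rose over both lines. For CCN1 no gene was as close: FSCN1 differed by 0.385, NUAK2, a kinase gene of the target signature, by 0.387 and HSP90AA1 by 0.415. The differences are not scaled to a gene's own spread, so they are not comparable between YAP1, CCN2 and CCN1. YAP1 ranged from 289 to 426 CPM over the libraries and CCN1 from 4.5 to 75.2 CPM. These are descriptions over 8 libraries that share the contrast of states, with no test attached.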

How the data were processed

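The values analysed are raw counts per gene that the authors deposited for 8 strand-specific, rRNA-depleted, paired-end libraries of total RNA. Per the submitters' processing notes, STAR 2.5.2b, SAMtools, HTSeq and hg38 were used. The sources used here do not give the annotation, counting mode or strand setting. Of 58302 gene IDs, 57532 had a symbol in the gene name table and 58039 were in GENCODE v29, which gave positions and exon lengths on GRCh38. HTSeq's classes of unassigned reads were left out of library sizes. Reads in no feature were 20.6% to 32% of reads.

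Genes were tested with edgeR 4.0.16 in R 4.3.3 (TMM scaling, robust quasi-likelihood fit, 4 group means, 4 residual degrees of freedom). The filterByExpr filter (minimum count 10, minimum total 15) left 18240 genes, over which p-values were adjusted by Benjamini-Hochberg with a threshold of 0.05. For TEAD shares the test was an exact permutation test, two-sided, over 8 libraries without regard to line. CPM per kb divides by merged exon length, so it shares the limits of that length. The pipeline was tested on simulated counts.

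The 10 genes and the pathway and marker lists were chosen with earlier results of these data known. Named from each list were up to 3 genes with the smallest adjusted p over both lines and a mean CPM of at least 1, plus the first of the other direction. Likeness used genes outside the set with a mean CPM of at least 5. Further genes named to complete a count were chosen after their values were seen. Deviations of libraries with the same replicate number correlated between -0.18 and 0.178 over the pairs of groups, so the numbers were not taken to pair samples.

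Alternatives comprised other scalings (RLE, upper quartile), DESeq2 1.42.0, omitting the low-count filter or requiring CPM of at least 5, a change of at least 2-fold, replicate blocks, fitting only the compared libraries, and removing 1 library at a time. Further alternatives, chosen after seeing the data, left out the 2 libraries richest in reads outside features and, for TEAD shares, used another transcript length or removed 1 library at a time.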

Additional observations from a re-analysis of the deposited data

Results flagged for a closer look

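In the 4 postconfluent libraries CCN2 was 34.3 CPM in Z2flag replicate 1 and 19.7 to 21.6 CPM in the other 3. The gap between the highest library and its nearest neighbour was 0.837 of the whole range, above Dixon's 95% critical value for 4 values. It was the only 1 of the 20 groups tested that stood out (10 genes in 2 states), and chance gives about 1 in 20. Without that library the CCN2 rise was still called in Z2flag cells and over both lines.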

How the results depend on the processing

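With 2 libraries per group, single libraries decided many calls, and depth limits TEAD2, which had at most 29 counts in a library. Of 561 recomputed results for the 10 genes, 497 kept their direction and side of the threshold. With the sign kept, 30 lost the call and 8 gained one. The other 26 changed sign, whether or not they also gained a call. Leaving out each library in turn, the number of these genes that rose ranged from 1 to 2 in Z2flag cells, 1 to 3 in Z1flag cells and 2 to 4 over both lines, and the number that fell from 0 to 2 in Z2flag and 1 to 5 in Z1flag cells. For Z2flag against Z1flag postconfluent cells it ranged from 0 to 3 higher and 0 to 1 lower. With a filter of CPM of at least 5, which removes TEAD2, 1 gene rose in Z2flag cells, 1 in Z1flag cells and 1 over both lines. In Z2flag cells 1 gene fell under upper-quartile scaling and 0 at a change of at least 2-fold. Without the 2 libraries richest in reads outside features, 1 gene rose and 1 fell in Z1flag cells. The replicate numbers were not taken to pair the samples, and a replicate block, shared or within lines, left the counts for the 10 genes as reported, while VGLL4 over both lines did not pass with the block within lines (0.37, edgeR adjusted p = 0.052).

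Signs turned only for results that had not passed. Under upper-quartile scaling the log2 fold change was 0.047 for YAP1 in Z2flag cells, 0.08 for CCN1 over both lines and 0.08 for AMOTL2 in Z1flag cells. TEAD3 in Z1flag cells was -0.045 with no filter, -0.016 with the shared replicate block and -0.05 with the replicate block within lines, and AMOTL2 over both lines was -0.010 with that block. CCN1 over both lines was 0.004 with the stricter filter. Without the 2 libraries richest in reads outside features, WWTR1 in Z1flag cells was -0.07, CCN1 over both lines 0.50 and AMOTL2 in Z1flag cells 0.54. The TEAD4 share difference was 0.778 percentage points with the longest coding transcript. Leaving out each library in turn gave -0.25 to 0.17 for YAP1 in Z2flag cells. WWTR1 ranged from -0.017 to 0.17 in Z2flag cells, -0.23 to 0.86 in Z1flag cells and -0.040 to 0.50 over both lines. TEAD3 ranged from -0.55 to 0.47 in Z1flag cells and -0.18 to 0.33 over both lines. CCN1 ranged from -0.26 to 1.75 in Z2flag cells and -0.90 to 0.35 over both lines, and AMOTL2 from -0.94 to 0.43 in Z1flag cells and -0.31 to 0.38 over both lines. The TEAD4 share difference ranged from -2.1 to 1.37 percentage points. With 7 libraries the exact test of a share cannot go below 0.0571. The causes were not tested.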
